A study of Mus musculus with 45 samples.

Results

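The comparison is that of A+T+ mice with AwTw mice after both had been fed a typical western diet (TWD). A+T+ mice carried the APP/PS1 transgene, which codes for chimeric mouse and human APP with the Swedish mutations and human PS1 without exon 9 and is driven by the mouse prion protein promoter, together with human Tau P301L driven by the CaMKII promoter. AwTw mice were wild-type littermates. Mice were selected by genotype and diet label, which gave 6 A+T+/TWD and 6 AwTw/TWD mice, 12 of the 45 mice in the series. All were female C57Bl/6J mice, all ate TWD (21% fat, 0.15% cholesterol, 35% sucrose) from 7 to 13 months of age, and polyadenylated RNA of the hippocampus was sequenced. The question is which genes differ between the brains of mice with both pathologies and wild-type brains when the diet is the same. For setting the difference in context, 4 A+T+/STD and 6 AwTw/STD mice on standard diet (STD, 5% fat), 6 A+Tw/TWD mice with APP/PS1 alone and 6 AwT+/TWD mice with Tau P301L alone were used. The CaMKII promoter is active in forebrain neurons and the prion protein promoter more broadly, and within a line, effects of the pathology and of transgene expression itself cannot be told apart.

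β-Amyloid plaques are surrounded by microglia, the resident macrophages of the brain. Signalling through the lipid-sensing receptor Trem2 and its adaptor Tyrobp is known to move such microglia from a homeostatic program, marked by P2ry12, Tmem119 and Cx3cr1, to a program of phagocytic, lysosomal and lipid genes that includes Cst7, Itgax, Clec7a and Apoe. Astrocytes near plaques become reactive and raise Gfap and Serpina3n. A whole hippocampus was sampled here, so more cells of a type and more RNA per cell cannot be told apart.

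Values are variance-stabilized expression levels on a log2 scale, and the difference between groups is given on that scale with its standard error (SE). Of 15897 genes, 116 (0.73%) passed an adjusted p of 0.05, 110 of them higher (0.692%) and 6 lower (0.0377%) in A+T+/TWD. Of the higher genes, 31 differed by more than 1 log2 unit, 70 by 0.5 to 1 and 9 by less, with a median of 0.82. At an unadjusted p under 0.05 there were 1234 genes (7.76%), and the median difference of all genes was -0.01. The values of the groups did not overlap for 109 of all genes (0.686%). The values of the 6 A+T+ mice all lay above those of the 6 AwTw mice for 73 of the 110 higher genes, where 84 of all genes (0.528%) separated in this direction, and all lay below them for 2 of the 6 lower genes, where 25 of all genes (0.157%) did. A total of 109 of the 116 are protein coding. Among them are 2 gene identifiers that repeat the values of Trem2 and Slc14a1, which leaves 114 different genes.

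The median level of a mouse over all genes lay between 8.05 and 8.26 in the 12 mice. The values had been normalized, so similar medians are largely set by that step. The lowest medians were those of A+T+ replicate 1 (8.05) and AwTw replicate 3 (8.10). All 17 markers of hippocampal subfields were in the table, 15 of them above the median gene, and none passed the threshold between the groups. Their differences ran from -0.31 (Il16) to 0.12 (Zbtb20), and all but that of Zbtb20 were negative, where 47.1% of all genes had a positive difference. The batches were uneven, with 4 of 6 A+T+ but 2 of 6 AwTw mice in batch 0, and batch was kept as a covariate throughout. The first component of the residuals held 41.3% of their variance, and A+T+ replicate 1 (score -2.42) and AwTw replicate 3 (-2.30) had the lowest scores of the 12 mice. Without these 2 mice, 116 genes passed the threshold, 108 higher and 8 lower, of which 103 were also called with all mice. With the score of this component as a covariate, 189 genes were higher and 102 lower, so the split between higher and lower genes depends on this choice. The gene weights of the component come from the residuals, but its scores come from the values themselves and can hold differences between the groups. The component comes from the same values, so the p-values of that fit can be too small.

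As a check of the labels, App and Prnp were examined first. App (chromosome 16, 84949685 to 85173766, GRCm38), the gene of the amyloid precursor protein, ranged from 15.26 to 15.80 (median 15.36) in A+T+/TWD and from 14.38 to 14.86 (median 14.63) in AwTw/TWD. The groups did not overlap, and App was higher by 0.87 ± 0.09 (SE, adjusted p = 2.86e-08). Prnp, the prion protein gene whose promoter drives the transgene, ranged from 14.66 to 14.95 (median 14.78) in A+T+/TWD and from 13.50 to 13.98 (median 13.91) in AwTw/TWD. Its difference was 1.05 ± 0.09 (adjusted p = 2.93e-11), again without overlap. Mouse Mapt, the tau gene, did not separate the groups (0.01 ± 0.11, 95% interval -0.20 to 0.23, adjusted p = 0.987), and neither did Camk2a (-0.19 ± 0.14, adjusted p = 0.769). The values of Mapt are those assigned to the mouse transcripts, so they check the endogenous gene and not the human tau transgene. Whether the App and Prnp values include reads of the APP/PS1 transgene was not tested.

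The processed pseudogene Lamr1-ps1 lies 5.842 kb before the start of Prnp on chromosome 2 (131904086 to 131904959, GRCm38). It was measured at 5.92 to 6.36 in A+T+/TWD. All 4 AwTw mice of batch 1 had the same value, 4.62, and both of batch 0 had 4.06, the lowest value of their batch. All 6 AwTw/STD and all 6 AwT+/TWD mice were at this floor as well, whereas no A+Tw/TWD and no A+T+/STD mouse was. The gene was called higher, but the size of its difference depends on where the floor lies and is not given. It was the 1 called gene with all 6 AwTw mice at the floor, and 7 called genes had at least 1 of the 12 mice there. The others were Asb10, Ccl4, Clec7a, Gm12231, Hcar2 and Lilrb4a, so the sizes of their differences depend in part on the floor too. The other tested genes that start within 143 kb of Prnp, 5330413P13Rik (0.08 ± 0.14), Rassf2 (0.12 ± 0.10) and Slc23a2 (0.07 ± 0.13), did not pass the threshold. Lamr1-ps1 is a copy of the laminin receptor gene Rpsa, so reads can be shared between them. Rpsa itself differed by -0.25 ± 0.21 (adjusted p = 0.807). The assignment of the Lamr1-ps1 reads is uncertain, and whether they come from this locus, from Rpsa or from the transgene was not tested. The bases before the Prnp start are given here because the transgene uses this promoter and because Prnp and its upstream neighbour were both higher. They are from RefSeq (GRCm38.p6, plus strand, chr2:131909678-131909927), read 5′ to 3′, with the match to the AP-1 motif TGANTCA (the site of Fos and Jun dimers) in capitals.
Prnp: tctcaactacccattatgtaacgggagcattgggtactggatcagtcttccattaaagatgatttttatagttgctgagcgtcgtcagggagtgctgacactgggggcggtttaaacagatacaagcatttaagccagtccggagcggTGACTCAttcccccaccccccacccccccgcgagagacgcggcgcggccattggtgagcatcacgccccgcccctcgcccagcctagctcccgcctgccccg

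Among the called genes, the 3 largest differences belonged to genes of plaque-associated microglia. Cst7, which encodes cystatin F, an inhibitor of lysosomal cysteine proteases, ranged from 8.37 to 10.05 (median 8.89) in A+T+/TWD and from 4.90 to 5.76 (median 5.34) in AwTw/TWD. The lowest A+T+ mouse stood far above the highest AwTw mouse, and the difference was 3.91 ± 0.19 (adjusted p = 4.66e-19), a 15-fold difference on this scale. Itgax, the integrin chain CD11c that pairs with Itgb2 as a complement receptor, ranged from 6.95 to 8.13 (median 7.37) against 4.52 to 5.62 (median 5.30). It was higher by 2.30 ± 0.19 (adjusted p = 2.47e-11). Clec7a, the phagocytic receptor dectin-1, ranged from 5.90 to 7.26 (median 6.77) against 4.59 to 5.25 (median 5.09) and was higher by 1.80 ± 0.23 (adjusted p = 1.14e-06). Its difference was 1.95 in batch 0 alone (adjusted p = 0.00129) and 1.34 in batch 1 alone (adjusted p = 0.234). Cd68, a lysosomal membrane protein of phagocytes, ranged from 9.37 to 10.27 against 7.96 to 8.71 and was higher by 1.49 ± 0.16 (adjusted p = 3.98e-08). None of these genes overlapped between the groups. Lilrb4a, an inhibitory receptor with a closely related copy, was higher by 1.39 ± 0.26 (adjusted p = 0.00101), with 5.26 to 6.51 against 4.4 to 4.97.

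**Figure D1:**
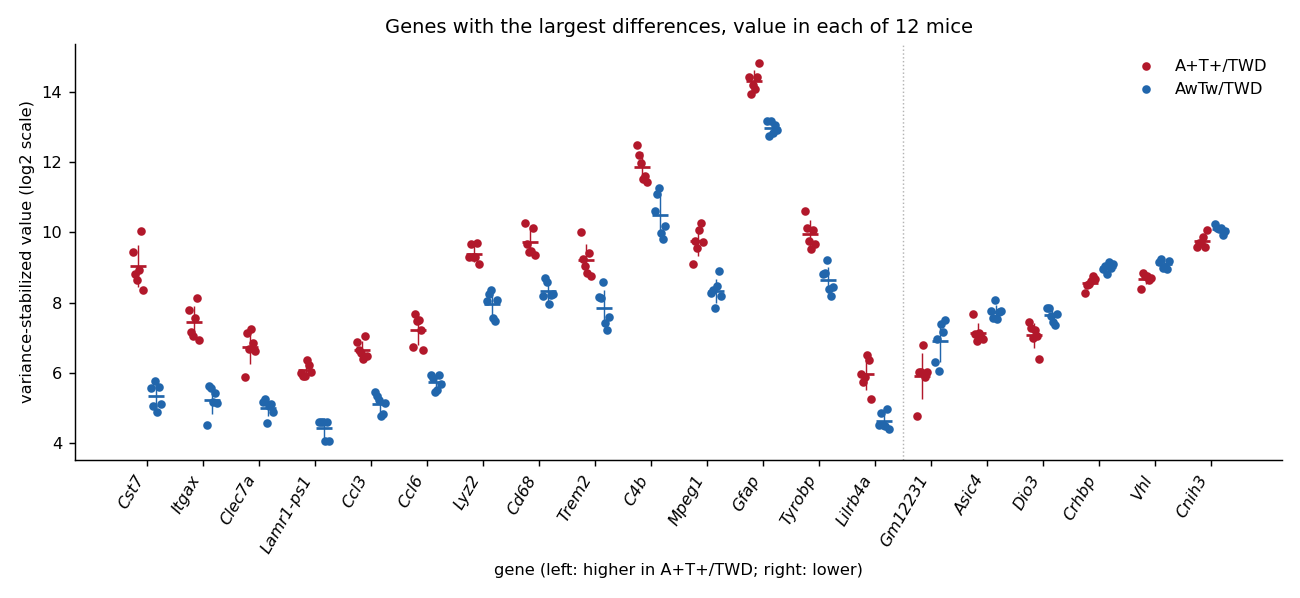
Variance-stabilized value (vertical axis, log2 scale) of each of the 6 A+T+/TWD mice (red) and 6 AwTw/TWD mice (blue) for the 14 different genes among the 15 called identifiers with the largest positive difference (1 repeats Trem2) and the 6 lower genes. Bars are the mean and SD of a group. Cst7 ranges from 8.37 to 10.05 in A+T+/TWD and from 4.90 to 5.76 in AwTw/TWD, and the AwTw values of Lamr1-ps1 are at the floor of the table.

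Of the 29 measured genes of the list of plaque microglia surface and secreted genes, 15 were higher and none was lower, with a median difference of 0.77 over the list. Over all genes, 110 of 15897 (0.692%) were higher, the share to set beside this count and those of the lists below. The 15 include the genes named above and Gpnmb, Cd52, Cd9, Mamdc2, Ctsz, Igf1, Cd84 and Slamf9, with differences from 0.65 (Slamf9) to 3.91 (Cst7). The mean level of the list, centred on AwTw/TWD, ranged from 0.72 to 1.07 in the 6 A+T+ mice and from -0.14 to 0.16 in the 6 AwTw mice. The 2 highest A+T+ mice were replicates 1 and 5, at 0.93 and 1.07, which are the 2 from batch 1. In batch 0 alone, with 4 against 2 mice, the list median was 0.72 with 6 genes called, and in batch 1 alone, with 2 against 4 mice, it was 0.77 with 7 genes called.

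Trem2 and Tyrobp, the receptor and adaptor of this program, were both higher. Trem2 (chromosome 17, 48346401 to 48354147) ranged from 8.77 to 10.01 (median 9.15) in A+T+/TWD and from 7.21 to 8.58 (median 7.86) in AwTw/TWD. Every A+T+ mouse lay above every AwTw mouse, and the difference was 1.47 ± 0.19 (adjusted p = 1.63e-06). Tyrobp ranged from 9.54 to 10.61 (median 9.92) against 8.19 to 9.22 (median 8.62) and was higher by 1.41 ± 0.18 (adjusted p = 1.14e-06). The other 14 measured genes of the list of Trem2 receptor and signalling partners did not pass the threshold, though all 16 differences were positive, where 47.1% of all genes were, with a median of 0.33. Apoe, a lipid carrier that binds Trem2, did not differ detectably. Its values of 14.89 to 15.93 in A+T+/TWD and 14.87 to 15.99 in AwTw/TWD covered the same range, with a difference of -0.02 ± 0.17 (95% interval -0.36 to 0.32, adjusted p = 0.988).

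Upstream bases of Itgax and Trem2 are shown because they are genes of this program whose promoter window holds a full AP-1 match before the start, a choice made after the matches were seen. Both are from RefSeq (GRCm38.p6, plus strand, Itgax at chr7:128129300-128129549 and Trem2 at chr17:48346151-48346400), with TGANTCA in capitals.
Itgax: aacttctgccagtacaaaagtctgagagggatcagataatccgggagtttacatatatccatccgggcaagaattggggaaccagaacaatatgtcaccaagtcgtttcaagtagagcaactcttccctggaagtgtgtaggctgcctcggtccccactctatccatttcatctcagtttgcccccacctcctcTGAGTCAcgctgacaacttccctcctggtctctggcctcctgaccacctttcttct
Trem2: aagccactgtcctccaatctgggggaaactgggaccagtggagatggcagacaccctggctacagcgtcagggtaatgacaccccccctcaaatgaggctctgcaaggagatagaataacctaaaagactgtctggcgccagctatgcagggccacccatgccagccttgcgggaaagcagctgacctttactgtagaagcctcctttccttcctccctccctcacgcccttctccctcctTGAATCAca
The match starts 56 bases before the RefSeq start of Itgax, 9 before that of Trem2 and 102 before that of Prnp. Of 14930 windows of 300 bases (250 before and 50 after a start) of tested genes, 5.18% hold TGANTCA on either strand. Windows were given for 79 of the 114 different called genes (69.3%), which is too few, so a comparison of the called genes with all windows is void for AP-1 and for the other sites searched. Of all windows, 2.76% hold the site GAGGAAGT of the macrophage factor PU.1, 2.95% an interferon-stimulated response element, 1.65% the site TCACGTGA of TFEB and 1.56% an NF-kB site. A match is a description of the letters and not of binding.

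Homeostatic microglia genes did not move in the opposite direction. Of 20 measured, 5 were higher and none lower, where 0.692% of all genes were higher, with a median difference of 0.22. Fcrls, an Fc receptor-like scavenger protein of microglia, was higher by 0.76 ± 0.13 (adjusted p = 0.000318). Cx3cr1, the receptor for neuronal fractalkine, ranged from 9.71 to 10.45 against 9.39 to 9.56 and was higher by 0.53 ± 0.11 (adjusted p = 0.00602). Without A+T+ replicate 5 its adjusted p was 0.0661. The purinergic receptor gene P2ry12 differed by 0.08 ± 0.28 (95% interval -0.48 to 0.64, adjusted p = 0.974) and Tmem119 by 0.10 ± 0.16 (95% interval -0.23 to 0.43, adjusted p = 0.925). Values of both genes overlapped between the groups, and the interval of P2ry12 includes a difference of the size measured for Cx3cr1.

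Genes shared by microglia and other macrophages were called in 12 of 30 cases, all higher, with a list median of 0.49. Of all genes, 0.692% were higher. Mpeg1, which encodes the pore-forming protein perforin-2, ranged from 9.10 to 10.27 (median 9.74) against 7.86 to 8.89 (median 8.32) and was higher by 1.45 ± 0.19 (adjusted p = 2.65e-06). Irf8, a transcription factor of the myeloid lineage, was higher by 0.91 ± 0.11 (adjusted p = 3.84e-07), and its values of 7.85 to 8.51 lay above those of AwTw mice, 6.82 to 7.48. Csf3r, the receptor for granulocyte colony-stimulating factor, was higher by 0.87 ± 0.13 (adjusted p = 4.69e-05) with slight overlap. Lyz2, the lysozyme of phagocytes and in no list, ranged from 9.11 to 9.70 against 7.49 to 8.37 and was higher by 1.5 ± 0.19 (adjusted p = 1.57e-06).

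Some receptors that bind antibodies and microbial products were higher. Of 7 Fc receptor genes 4 were called, Fcrls among them, where 0.692% of all genes were higher. The inhibitory receptor gene Fcgr2b ranged from 7.95 to 8.52 against 6.59 to 7.34 and was higher by 1.31 ± 0.14 (adjusted p = 3.04e-08). The activating receptor gene Fcgr3 was higher by 0.84 ± 0.12 (adjusted p = 8.29e-06), and the shared signalling chain gene Fcer1g by 0.81 ± 0.14 (adjusted p = 0.000308). Of 16 Toll-like receptor genes and partners, 4 were called. Cd14, the co-receptor for lipopolysaccharide, was higher by 1.04 ± 0.13 (adjusted p = 1.14e-06), Ly86, the partner of Cd180, by 1.03 ± 0.14 (adjusted p = 1.68e-06), Cd180 by 0.95 ± 0.16 (adjusted p = 0.00018) and Tlr2 by 0.90 ± 0.16 (adjusted p = 0.000386). All 4 called Toll-like genes and all 4 called Fc receptor genes were without overlap, where 84 of all genes (0.528%) separated in this direction. Ly86 and Fcer1g are also among the called genes shared by microglia and other macrophages.

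Complement genes were called in 5 of 21 cases, all higher, where 0.692% of all genes were higher. C4b, a component of the classical pathway that is also made by astrocytes, ranged from 11.44 to 12.48 (median 11.79) against 9.83 to 11.26 (median 10.40) and was higher by 1.47 ± 0.21 (adjusted p = 6.85e-06). It has a near-identical copy, C4a, so its level is uncertain. C3ar1, the receptor for the C3a fragment, was higher by 0.96 ± 0.18 (adjusted p = 0.00114). Itgb2, the common chain of the leukocyte integrins, was higher by 0.73 ± 0.16 (adjusted p = 0.0119), but 1 AwTw mouse at 8.50 overlapped the A+T+ range of 8.03 to 8.58, and its adjusted p was 0.0634 with the choroid plexus level described later as a covariate. Of 15 chemokine and receptor genes 4 were called. Ccl3 ranged from 6.39 to 7.05 against 4.79 to 5.45 and was higher by 1.62 ± 0.15 (adjusted p = 6.86e-10), Ccl6 by 1.55 ± 0.19 (adjusted p = 7.57e-07) and Ccl4 by 0.90 ± 0.15 (adjusted p = 0.000134).

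The lysosomal list, with 38 genes measured, had 11 called, all higher, and a median of 0.29, where 0.692% of all genes were higher. Ctss, the cathepsin that trims the invariant chain of class II molecules, ranged from 10.90 to 11.16 against 10.01 to 10.41 and was higher by 0.89 ± 0.11 (adjusted p = 2.46e-07). Other called members were Cst7, Cd68, Ctsd, Ctsz, Laptm5, Gusb, Ctsh, Grn and Man2b1, with differences of at least 0.55. Of 9 listed class II antigen presentation genes Ctss was the 1 called, with a list median of 0.67. H2-Ob, a chain of a class II-like regulator of peptide loading that the list does not hold, was also higher (0.64 ± 0.12, adjusted p = 0.00156), with 5.56 to 6.13 against 4.88 to 5.48. None of 15 class I genes was called, with a median of 0.32. B2m, the light chain of class I molecules, differed by 0.60 ± 0.19 (adjusted p = 0.22), and H2-Q7 by 0.72 ± 0.24 (adjusted p = 0.256). None of 25 interferon-stimulated genes was called, although 24 of the 25 differences were positive, with a median of 0.26. The 2 with the smallest p, Lgals3bp (0.74 ± 0.28, adjusted p = 0.435) and Irf9 (0.32 ± 0.14, adjusted p = 0.587), overlapped between the groups.

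**Figure D2:**
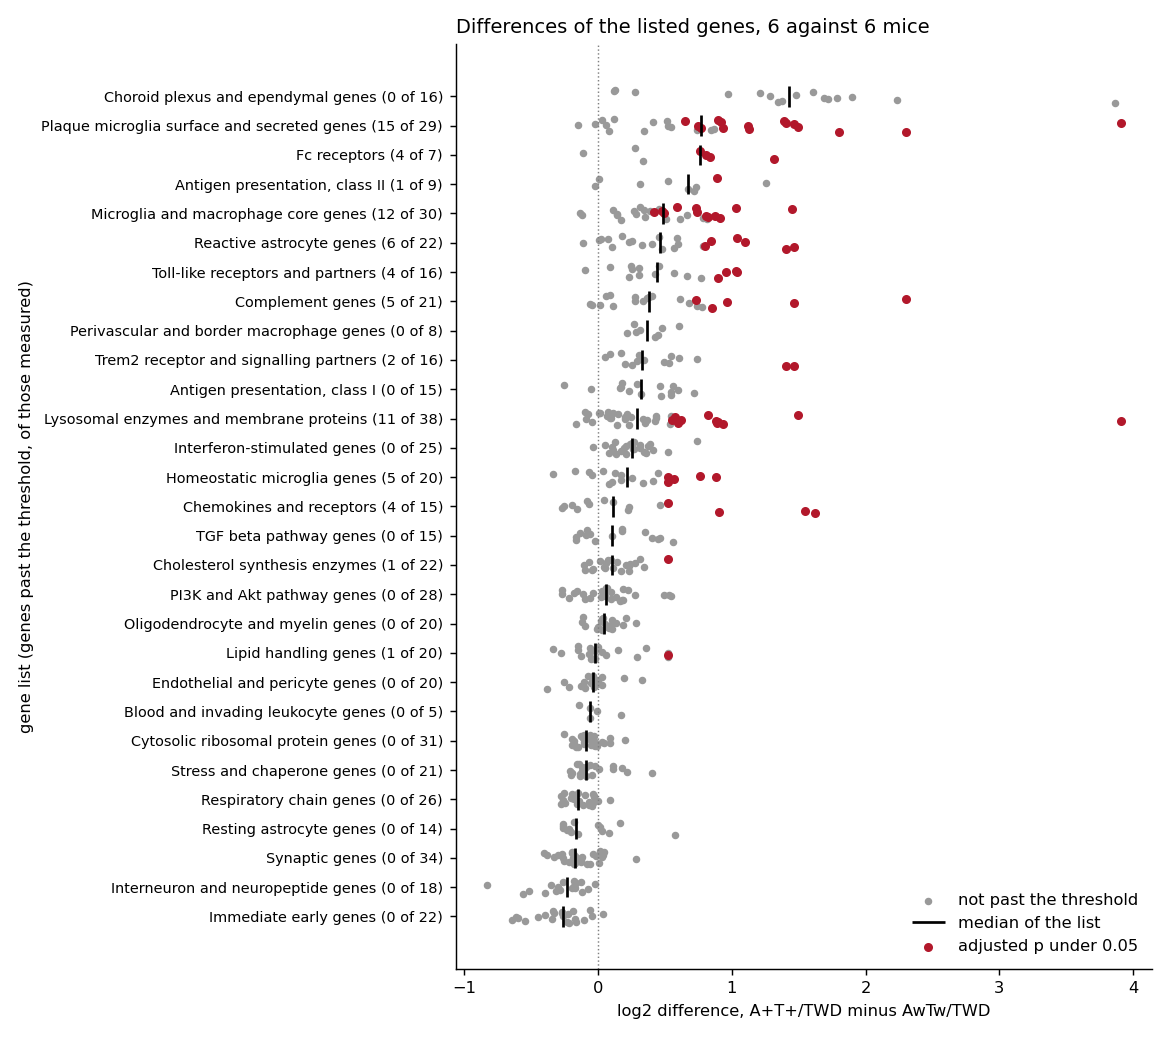
Difference in log2 units between A+T+/TWD and AwTw/TWD (horizontal axis) of every measured gene of the 29 lists, with called genes in red, others in grey and the list median as a black bar, and the number called of those measured beside each name. Lists of microglia genes have medians from 0.22 to 0.77, and the choroid plexus list has the largest median, 1.43, with none of its 16 genes called.

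Genes of lipid handling had a median difference of -0.02 over 20 measured genes, and those of cholesterol synthesis a median of 0.10 over 22.

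Reactive astrocyte genes were called in 6 of 22 cases, all higher, with a list median of 0.47, where 0.692% of all genes were higher. Of the 6, C4b and Cd14 are also in the complement and Toll-like receptor lists. Gfap, the intermediate filament protein of astrocytes, ranged from 13.94 to 14.83 (median 14.30) against 12.74 to 13.18 (median 12.98) and was higher by 1.41 ± 0.12 (adjusted p = 4.50e-11). Aspg, an asparaginase of reactive astrocytes, ranged from 7.10 to 7.58 against 6.04 to 6.94 and was higher by 1.10 ± 0.18 (adjusted p = 0.000114). Ggta1 and Osmr were called as well, whereas Serpina3n was not among the called genes. The mean level of the list ranged from 0.30 to 1.05 in A+T+ mice, with the highest at 1.05 (replicate 6) apart from the next at 0.49. Of 14 resting astrocyte genes none was called, and the median was -0.16. Aqp4, the water channel of astrocyte endfeet, differed by 0.57 ± 0.23 (adjusted p = 0.472).

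The lists of synaptic, immediate early and interneuron genes held no called gene, and most of their members had small negative differences. Of 34 synaptic genes 28 were negative (median -0.17), of 22 immediate early genes 21 were negative (median -0.26), and of 18 interneuron and neuropeptide genes all 18 were negative (median -0.23), whereas 47.1% of all genes had a positive difference. The gene with the smallest p of each list was, in this order, Dlg4, the scaffold PSD-95 (-0.30 ± 0.13, adjusted p = 0.532), Egr4, an activity-induced transcription factor (-0.60 ± 0.19, adjusted p = 0.212), and Cort, the neuropeptide cortistatin (-0.83 ± 0.22, adjusted p = 0.078). Cort ranged from 7.10 to 7.99 against 7.62 to 8.58, and Sst, the neuropeptide somatostatin, from 11.79 to 12.62 against 12.29 to 12.96 (-0.56 ± 0.17, adjusted p = 0.148). Over the alternative fits, Cort passed the threshold in 3 of 25, Sst in 2 of 26 and Egr4 in 1 of 26. With the residual component as a covariate, Cort, Sst and Egr4 did pass (adjusted p = 0.000181, 2.1e-05 and 0.0185). They were the 2 interneuron genes and the 1 immediate early gene that did in that fit, and no synaptic gene passed. Their differences were smaller in that fit (-0.74, -0.49 and -0.53). The gene weights of the component were taken from the residuals of the same values. The spread thus shrinks by construction, and the p-values of that fit can be too small. The scores of the component were computed from the values themselves, so the covariate can also take up part of a group difference.

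The 6 genes that were lower do not belong to any list. Gm12231, a processed pseudogene, ranged from 4.78 to 6.79 against 6.05 to 7.50 and differed by -1.04 ± 0.25 (adjusted p = 0.0239), with 3 A+T+ mice at the floor. Asic4, a member of the acid-sensing ion channel family, ranged from 6.91 to 7.67 against 7.55 to 8.08 and differed by -0.61 ± 0.14 (adjusted p = 0.0161). Dio3, the deiodinase that inactivates thyroid hormone, ranged from 6.41 to 7.44 against 7.36 to 7.86 and differed by -0.59 ± 0.15 (adjusted p = 0.0336). Crhbp, which binds corticotropin-releasing hormone, ranged from 8.29 to 8.75 against 8.81 to 9.17 and differed by -0.46 ± 0.12 (adjusted p = 0.0429). Vhl, a ubiquitin ligase component that marks hypoxia-inducible factors for degradation, ranged from 8.38 to 8.84 against 8.97 to 9.26 and differed by -0.42 ± 0.11 (adjusted p = 0.0482). Cnih3, an auxiliary subunit of AMPA receptors, ranged from 9.58 to 10.06 against 9.92 to 10.23 and differed by -0.35 ± 0.09 (adjusted p = 0.03). Crhbp and Vhl are the 2 without overlap. All 6 lost the call with the level of choroid plexus genes as a covariate (lowest adjusted p 0.0697, for Asic4), where their differences were -0.32 (Cnih3) to -0.95 (Gm12231), and also in each batch alone, and when at least 1 of the mice was left out (highest adjusted p 0.0613 for Asic4 to 0.163 for Vhl).

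Genes in no list made up 59 of the 114 different called genes, 53 higher and 6 lower. The 5 with the smallest p outside the largest differences were App and Prnp, described with the label checks, and St14, AU020206 and Ly9. St14, the membrane protease matriptase, ranged from 6.41 to 7.02 against 5.12 to 6.03 and was higher by 1.06 ± 0.11 (adjusted p = 6.51e-09). AU020206, an intergenic long non-coding RNA, was higher by 1.15 ± 0.14 (adjusted p = 3.84e-07), and Ly9, a SLAM family receptor, by 0.99 ± 0.13 (adjusted p = 1.57e-06). The positions of the called genes are given as a description. Of 113 called genes with a position, 28 had a called neighbour with a start within 1 Mb, in 10 groups. How often other genes have such neighbours was not computed, so the count has no background. The spans below begin and end at a called gene by definition. The largest group was on chromosome 1 (170958617 to 172478575), where 8 of 41 tested genes were called, namely Fcgr2b, Fcgr3, Fcer1g, Arhgap30, Ly9, Cd48, Cd84 and Slamf9. On chromosome 11, Ccl6, Ccl3 and Ccl4 start within 74.7 kb of each other, and all 3 genes tested in that span were called.

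Lists of markers of other tissue held no called gene, and their values stand beside the results above. All 16 genes of the choroid plexus and ependymal list were positive, with a median of 1.43 and differences up to 3.87 for Ttr, the transthyretin of choroid plexus epithelium, but none was called (smallest adjusted p 0.489, for Otx2). The level of the list was 1.29 to 2.16 in 5 A+T+ mice and -0.45 in replicate 4, and it was -0.92 to 0.82 in 5 AwTw mice and 2.29 in replicate 3. The range of the groups thus overlapped. The 1 A+T+ mouse with a low level of this list had a plaque microglia level of 0.75, within the A+T+ range of 0.72 to 1.07. The 1 AwTw mouse with a high level had 0.16, the highest plaque microglia level of the AwTw mice. With the choroid plexus level as a covariate, 93 genes were called, all higher, 91 of them also called without it. The list medians that moved by more than the spread between mice were those of the plaque microglia genes (0.77 to 0.63), class II genes (0.67 to 0.15) and the choroid plexus list itself (1.43 to -0.02). The part of choroid plexus RNA in the plaque microglia and class II differences was not tested. The 5 measured blood and invading leukocyte genes had a median of -0.06, none called. The 8 genes of perivascular and border macrophages all had positive differences (0.22 to 0.61), none called.

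**Figure D3:**
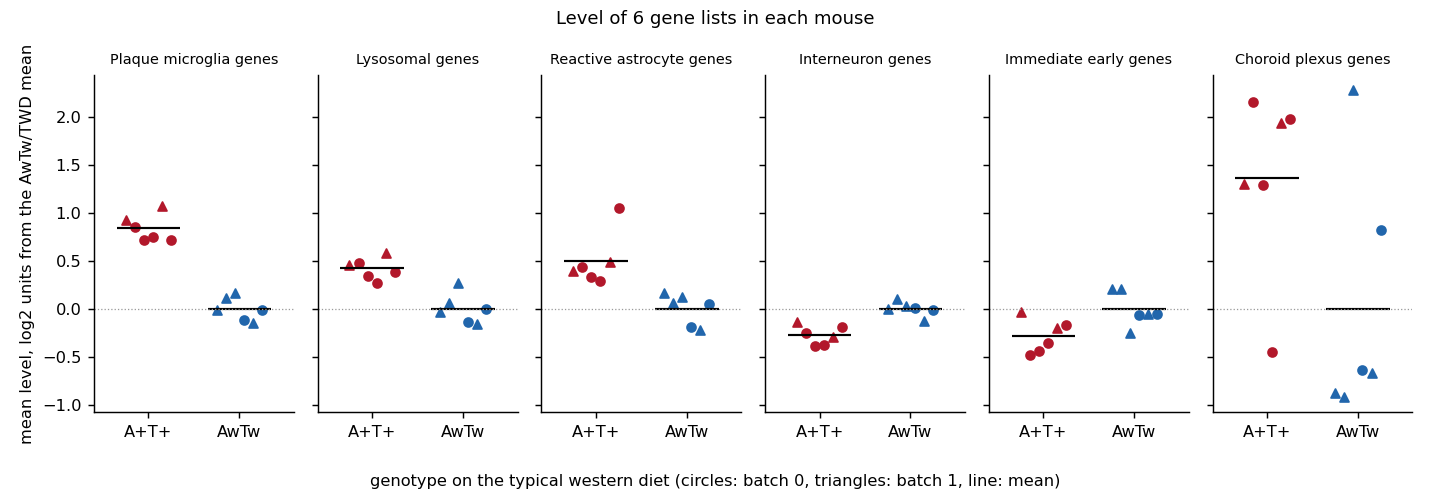
Mean level of 6 gene lists in each of the 12 mice (vertical axis, log2 units from the AwTw/TWD mean), A+T+ in red and AwTw in blue, batch 0 as circles, batch 1 as triangles, group mean as a line. Plaque microglia levels are 0.72 to 1.07 in A+T+ mice and -0.14 to 0.16 in AwTw mice, whereas the choroid plexus levels of the groups overlap, with 1 A+T+ mouse at -0.45 and 1 AwTw mouse at 2.29.

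The other lists held no called gene. The PI3K and Akt list had a median of 0.06 over 28 genes. Its regulatory subunit gene Pik3r1 differed by 0.10 ± 0.19 (95% interval -0.29 to 0.48, adjusted p = 0.943). The catalytic subunit gene Pik3cg differed by 0.54 ± 0.17 (adjusted p = 0.211), although its groups did not overlap, and Inpp5d, the lipid phosphatase SHIP1 of microglia, by 0.53 ± 0.16 (adjusted p = 0.192). Of the TGF beta list, Tgfb1 differed by 0.56 ± 0.16 (adjusted p = 0.118) and Tgfbr2 by 0.47 ± 0.19 (adjusted p = 0.488). Lists of oligodendrocyte, endothelial, stress, respiratory chain and ribosomal protein genes had medians between -0.15 and 0.05.

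The same genotypes on STD showed the same direction for the 110 higher genes. The median difference on STD was 0.81, all 110 were positive, and 87 of them were called there, where 194 of all genes (1.22%) were higher. Of the 6 lower genes, 5 had a negative difference on STD and none was called there. The difference between the diets was tested as an interaction. None of 15897 genes passed (0%, smallest adjusted p 0.56), with 1001 (6.3%) at an unadjusted p under 0.05 by limma. Over the 110 genes, 61 had a smaller difference on TWD and 49 a larger one, with a median interaction of -0.02. These genes were called for their difference on TWD, so this count is not independent of the TWD values. Of the 29 plaque microglia genes, 21 had a negative interaction (median -0.22), as had 12 of the 16 Trem2 list genes (median -0.14) and 28 of the 38 lysosomal genes (median -0.26), whereas 8215 of all 15897 genes had one (median -0.01). Of the 16 Toll-like genes 6 were negative (median 0.10), and of the 31 ribosomal protein genes 29 (median -0.41). Cst7 differed by 4.17 on STD and 3.91 on TWD (interaction -0.26, 95% interval -0.82 to 0.29). Trem2 differed by 1.98 and 1.47 (interaction -0.51, 95% interval -1.08 to 0.06, unadjusted p = 0.08), and Tyrobp by 1.88 and 1.41 (interaction -0.47, 95% interval -1.01 to 0.06, unadjusted p = 0.081). All 3 intervals include 0. Apoe differed by 0.50 on STD and -0.02 on TWD (interaction -0.52, 95% interval -1.02 to -0.01, unadjusted p = 0.044). The 3 called genes with the smallest interaction p were Vhl (interaction -0.54, unadjusted p = 0.0016), Asic4 (-0.60, unadjusted p = 0.0066) and Glipr2, a Golgi-associated gene (0.54, unadjusted p = 0.019).

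**Figure D4:**
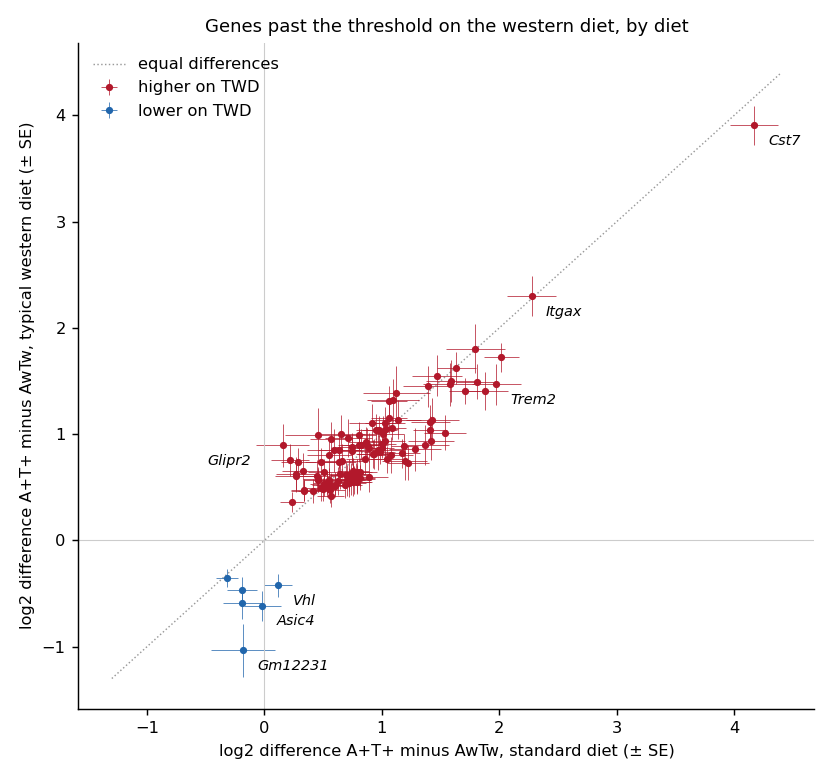
Difference between A+T+ and AwTw on the standard diet (horizontal axis) and on the typical western diet (vertical axis), in log2 units with SE, for the 114 different genes called on TWD, higher in red and lower in blue, with a dotted line for equal differences. All higher genes are above 0 on both diets, and Cst7 lies at 4.17 and 3.91. Vhl, Asic4 and Gm12231, which are lower on TWD, lie near 0 on STD.

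Against the single transgenic lines on the same diet, A+T+/TWD differed from AwT+/TWD but not detectably from A+Tw/TWD. Compared with AwT+/TWD, 121 genes were called (0.761%), 117 higher (0.736%) and 4 lower (0.0252%), and 89 of the 110 higher genes were among them. Compared with A+Tw/TWD, no gene was called (0%, smallest adjusted p 1), with 208 (1.31%) at an unadjusted p under 0.05 by limma. Over the 110 higher genes, the median difference between A+T+/TWD and A+Tw/TWD was -0.05, with 42 positive. For Cst7 the difference between these groups was -0.24 (95% interval -0.61 to 0.13), for Trem2 -0.25 (95% interval -0.63 to 0.13), for Gfap 0.18 (95% interval -0.06 to 0.42) and for Tyrobp -0.18 (95% interval -0.54 to 0.17). These comparisons share the A+T+ mice, and both single-line contrasts share the AwTw mice, so the values stand side by side. Relative to those mice, the 110 genes differed by a median of 0.82 in A+T+, 0.84 in A+Tw and 0.01 in AwT+.

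**Figure D5:**
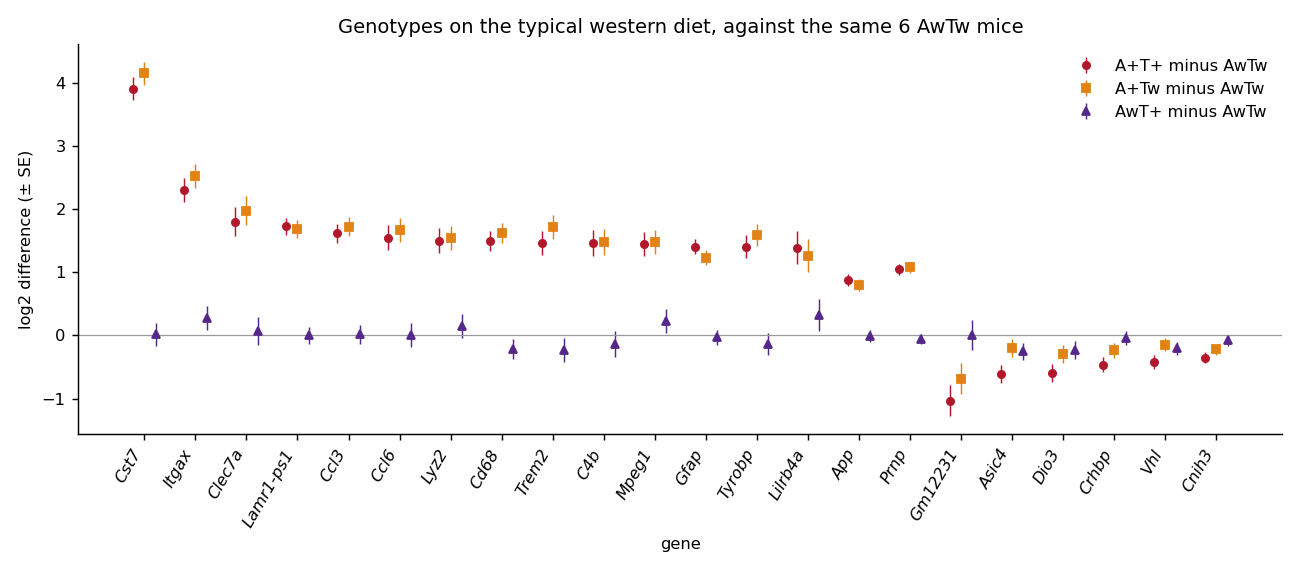
Difference in log2 units (vertical axis, ± SE) of A+T+ (circles), A+Tw (squares) and AwT+ (triangles) mice on TWD from the same 6 AwTw/TWD mice, for the called genes with the largest positive differences, App, Prnp and the 6 lower genes. AwTw and AwT+ values of Lamr1-ps1 are at the floor of the table. A+T+ and A+Tw lie close together for the higher genes (Cst7 3.91 and 4.15, Gfap 1.41 and 1.23), and AwT+ lies near 0 (0.02 and -0.03).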

How the data were processed

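Hippocampal polyadenylated RNA was sequenced from 45 female mice, and 12 of them (6 A+T+/TWD, 6 AwTw/TWD) form the comparison reported. The authors trimmed reads (Trimmomatic 0.38), removed ribosomal and mitochondrial reads (Bowtie2 2.2.3), quantified mouse transcripts (kallisto 0.44.0, mm10), applied the variance-stabilizing transformation of DESeq2 1.22.2 and removed batch with limma 3.38.3. The deposited values are therefore log2-like levels of 15897 genes, not counts. Depth per mouse is not known from them, so errors rest on the spread between mice, each sample being 1 animal.

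Groups come from the labels' genotype and diet, and batch from its own label. In the table, the batch means of each gene are equal over all mice, so batch was kept as a covariate. The test was limma 3.58.1 (R 4.3.3), applied in 1 fit of 8 groups with a mean trend. The two-sided p-values of all 15897 genes were adjusted by the Benjamini-Hochberg method, and genes under 0.05 were called. Every adjusted p in the text comes from this test, or from the same test under the alternative setting named beside it. Folds are 2 raised to the log2 difference. The method was tested on simulated data. Symbols and positions are from GENCODE M21 (GRCm38). Tables were joined and drawn with Python 3.11.15, pandas 2.3.3, scipy 1.17.1 and matplotlib 3.10.9.

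The comparison, the 29 gene lists and the tests were chosen with earlier results of these data known. Of the listed names 54 were not in the table, and 1 was matched by an older name. Of the 545 different genes in the lists, 38 are in more than 1 list, so the lists are not independent results. The genes named are App, Prnp, Mapt and Camk2a, the 15 identifiers with the largest positive and up to 10 with the largest negative difference among those called, up to 4 called genes per list by smallest p (or the 2 smallest p where none was called), 12 fixed microglial, astrocytic and signalling genes, the 5 called genes in no list with the smallest p outside the largest differences, and the 3 called genes with the smallest interaction p. Further called members of lists and neighbouring genes were named after their values were seen. Replicate numbers follow the order of the samples and pair nothing. The alternatives left out the batch covariate, used 1 batch at a time, added as a covariate either the label prefix of the mice or the first residual component, fitted only the groups compared, or used quantile normalization, 2 filters on low values, no mean trend, robust empirical Bayes, repeated genes counted once and each mouse left out. The choroid plexus level as a covariate, and 2 mice left out together, were added after seeing the data. Results of some genes that this rule names are not reported here.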

Additional observations from a re-analysis of the deposited data

Results flagged for a closer look

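Mice that stood apart from the rest of their group of 6 by Dixon's criterion were looked for in the named genes and the list levels. This happened in 13 of 224 groups (5.8%), and chance gives about 1 in 20. Among called genes, the highest A+T+ mouse stood apart for Asic4 (7.67, next 7.14), the highest AwTw mouse for Itgb2 (8.50, next 7.51), Aspg (6.94, next 6.33) and Glipr2 (6.4, next 6.02), and the lowest A+T+ mouse for Cd14 (6.80, next 7.23) and AU020206 (6.80, next 7.30). Among genes that did not pass the threshold, the highest A+T+ mouse stood apart for Dlg4 (14.28, next 13.87) and Egr4 (8.66, next 8.04), the lowest AwTw mouse for Pik3cg (5.36, next 6.05), and the lowest A+T+ mouse for the choroid plexus genes Otx2 (5.85, next 7.57) and Clic6 (6.71, next 9.06). The lowest A+T+ mouse of the choroid plexus list level was at -0.45, with the next at 1.29, and the highest A+T+ mouse of the reactive astrocyte list level was at 1.05, with the next at 0.49. No gene's difference between diets passed the threshold.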

How the results depend on the processing

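The 46 named called identifiers kept their direction in every alternative that tested them (24 to 26 each, since the filters drop low genes), and 17 passed the threshold in each of these. When any 1 mouse was left out, 36 still passed. The number of genes called in A+T+/TWD against AwTw/TWD was 116. It was 33 in batch 0 alone and 26 in batch 1 alone (fewer mice), 50 with only the groups compared (fewer mice for the spread), 66 with genes above the 25th percentile and 31 above the median (fewer genes), and 291 with the first residual component as a covariate, where 189 were higher and 102 lower instead of 110 and 6, and the cause was not tested. Leaving out 1 mouse gave 95 to 130. Against AwT+/TWD, 121 genes became 46 in batch 0 alone, 34 in batch 1 alone, 55 with only the groups compared, 72 above the 25th percentile and 32 above the median, and 95 to 115 with 1 mouse left out. Counts of the interaction and of the comparison with A+Tw/TWD were 0 in all alternatives run. Of the 6 lower genes, Crhbp and Vhl lost the call most often (20 of 26 alternatives each). No paired analysis was possible because the labels give no replicate numbers. Depth is not known from the table, so low genes cannot be separated from noise by their counts.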
